A study of Dicentrarchus labrax with 10 samples.

Results

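The transcripts described here are those of 1 set of sea bass cDNA clones, library 22, measured in gonads of estradiol-fed fish. The array carries 326 transcripts whose names begin with cDN22P. A transcript was kept when at least 50% of the spots of a probe were well above background on 5 or more of the 10 arrays, and it was then represented by its brightest kept probe. This kept 300 of the 326 transcripts, out of 9929 kept among 11705 on the whole array. Members were thus chosen by clone name and selected on measured detection in these arrays, so signal levels and detection are given as a description. A name such as cDN22P0005J11 is read here as library 22, plate 5, well J11. The plate numbers run from 1 to 6, the well letters cover 16 rows and the well numbers of kept transcripts reach 24. Clone names are the only identity the files give, so no gene symbol, function, genome position or sequence is attached to a transcript here. The source tissue of library 22 is not stated in the labels or files used here.

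The fish are European sea bass (Dicentrarchus labrax), 5 in each of 2 groups. All larvae were held at 17 °C for the first 20 days post hatch (dph). The HTE2 tank then went up to 21 °C and the LTE2 tank down to 15 °C. At 60 dph the LTE2 tank was warmed to 21 °C too. Both groups ate food carrying estradiol between 90 and 154 dph. Gonads were taken at 170 dph from fish that the labels call putative females. There was 1 tank per temperature, so an effect of the tank and one of temperature cannot be told apart. Fish not fed estradiol were not analysed here. Since probes carry no gene names, gonadal marker genes could not be looked up to check the tissue.

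As background, sex in the European sea bass is set by many genes together with the temperature of early life, and early warmth shifts development toward males. Estradiol, the main ovarian estrogen, pushes an undecided gonad toward an ovary when it is given during the sensitive juvenile period. In fish ovaries estradiol is made from androgen by gonadal aromatase. The comparison of HTE2 with LTE2 asks whether early temperature leaves a difference in gonads that have all been fed the same feminizing hormone.

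Each fish had its own 1-colour Agilent array, and values are log2 intensities with the 75th percentile of each array set to 0. Brightness differed between arrays: that percentile was 525.1 ± 174.2 intensity units in LTE2 and 936.3 ± 304.3 in HTE2 (SD, n = 5 each). Each of the 5 slides held 1 LTE2 and 1 HTE2 array with the same replicate number, at place 3 and place 4, so place on the slide and group cannot be told apart. HTE2 replicate 3 lay closer to the other group than to its own. Across all kept transcripts it correlated at a mean r of 0.923 with the other HTE2 fish and 0.947 with the LTE2 fish. HTE2 replicate 4 had a still lower mean r with the other HTE2 fish, 0.914, and 0.827 with the LTE2 fish. LTE2 replicate 1 had by far the dimmest array, with a 75th percentile of 232.8.

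Most library 22 transcripts were detected in every fish. Of the 300, 245 were well above background on all 10 arrays, and 6, 7, 12, 16 and 14 were so on 5, 6, 7, 8 and 9 arrays. Among the 55 not detected everywhere, 43 were detected on more HTE2 than LTE2 arrays, 5 on more LTE2 arrays and 7 on equal numbers. Between 258 and 296 of the transcripts were detected on an LTE2 array (mean 278.2 ± 13.9, SD, n = 5) and between 287 and 298 on an HTE2 array (293.8 ± 4.66). The whole array leaned the same way: of all 9929 kept transcripts, 8843 to 9769 were detected on an LTE2 array and 9476 to 9874 on an HTE2 array. Arrays of HTE2 were brighter, and the part of brightness in these detection counts was not tested. Of the kept transcripts detected on 5 arrays, the dimmest were cDN22P0001L17, cDN22P0006J11 and cDN22P0006E21, with mean signals of -6.04, -5.78 and -5.77. Others detected on 5 arrays were brighter, such as cDN22P0004M08 (-5.24) and cDN22P0001I21 (-5.19). Just outside the detection limit, the brightest transcripts detected on 4 arrays were cDN22P0004P09, cDN22P0003L03 and cDN22P0006A14, with -5.26, -5.61 and -5.91. As the dimmest kept and the brightest left-out transcripts were picked, these signals do not compare the sides of the limit. In all, 26 transcripts were left out, 2 of which were detected on no array.

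The set spans nearly the whole range of signals on the array. The mean signal over all arrays ran from -6.04 to 8.11 with a median of -1.18, against a median of -1.30 over all 9929 kept transcripts. By quartiles of signal over all kept transcripts, from dim to bright, the set had 73, 72, 53 and 102 members. The brightest quartile thus held the most. The brightest kept probe stands for a transcript, and the set had more probes to choose from. It had 822 kept probes for 300 transcripts, against 20115 for 9929 on the whole array. The part of this in the signal of the set was not tested. Signal also depends on how well a probe binds. Among the 275 transcripts with more than 1 kept probe, the mean signals of a transcript's probes lay a median of 0.48 and at most 5.69 log2 units apart, so the levels of different transcripts are not ranked as RNA abundance.

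The 8 brightest probes belonged to cDN22P0005O03 (8.11), cDN22P0002E16 (7.59), cDN22P0006L07 (7.42), cDN22P0004C10 (5.89), cDN22P0003C08 (5.23), cDN22P0004F20 (4.58), cDN22P0006K23 (4.57) and cDN22P0004B06 (4.44). For the first 3 the spots on both arrays of slide 1 were flagged as outliers, so 4 fish per group remain. These 3 were nearly flat among LTE2 fish. The signal of cDN22P0006L07 was 7.72, 7.65, 7.67 and 7.67 in LTE2 replicates 2 to 5 and 7.17, 7.45, 6.66 and 7.38 in HTE2 replicates 2 to 5. No HTE2 fish reached the lowest LTE2 fish. The log2 difference for cDN22P0006L07 was -0.51 (SE 0.23) and did not pass the test (limma adjusted p = 0.123). For cDN22P0002E16 the difference was -0.52 (limma adjusted p = 0.153), and for cDN22P0005O03 it was -0.49 (limma adjusted p = 0.153). The sign of all 3 turned in the authors' value table, with 0.18, 0.03 and 0.04, and under quantile normalization and spike-in scaling. Of the 8, cDN22P0004C10 and cDN22P0004F20 passed the test between the groups. The transcript cDN22P0004F20 rose by 0.84 log2 units (SE 0.22, limma adjusted p = 0.0242), from 4.16 ± 0.18 to 5.00 ± 0.41 (SD, n = 5). That call passed in 21 of 31 alternative analyses. Among those that lost it was the slide as a block (limma adjusted p = 0.0593).

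Of the 300 transcripts, 79 (26.3%) differed between HTE2 and LTE2 by limma at a Benjamini-Hochberg adjusted p under 0.05, 55 higher and 24 lower in HTE2. Over all 9929 kept transcripts 25.3% differed, so the share in the set was near that background. By direction, 18.3% of the set was higher against 10.7% of all kept transcripts, and 8% was lower against 14.5%. For comparison, 91 of 334 library 23 transcripts were higher and 24 lower, and 62 of 257 library 24 transcripts were higher and 21 lower. In clone libraries 25 to 35 together 428 of 5876 were higher and 953 lower. Among the 3162 kept transcripts without a clone name (contigs), 431 (13.6%) were higher and 422 (13.3%) lower. These counts are set side by side without a test of the difference between libraries. In a bulk sample fewer cells of a type and less RNA per cell cannot be told apart, and this holds for every difference given here.

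The median difference lay near 0 on this scale. It was -0.02 log2 units, against -0.27 over all kept transcripts, 0.44 in library 23 and 0.14 in library 24, and 147 transcripts had a positive and 153 a negative difference. Of the 55 called rises 40 were over 2-fold and 11 over 4-fold, against 744 and 163 of the 1067 rises over all kept transcripts. Of the 24 called falls 20 were over 2-fold and 4 over 4-fold, against 925 and 89 of 1444. The median called rise was 1.20 log2 units and the median called fall -1.36, against 1.26 and -1.12 over all kept transcripts. The smallest called rise was 0.56 and the smallest called fall -0.79 log2 units, at a median standard error of 0.31. Among the 221 uncalled transcripts, 26 had differences over 2-fold, 15 higher and 11 lower.

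**Figure D1:**
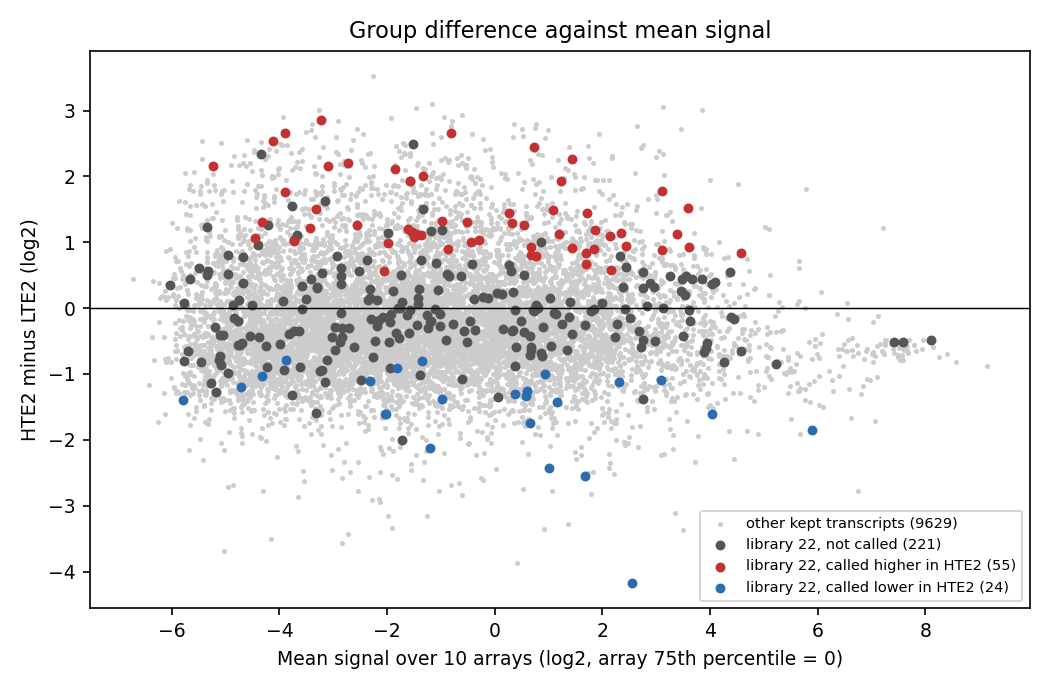
The difference HTE2 minus LTE2 (log2) is plotted against the mean signal over all arrays (log2, 75th percentile of the array at 0) for 300 library 22 transcripts and for all other kept transcripts in grey. Called rises (55, red) and falls (24, blue) occur from dim to bright signals, and cDN22P0005J11 is the lowest blue point.

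The balance of rises and falls depended on the scaling, which shifts all transcripts of an array together, and on the background correction. Scaling to 7 of the 10 E1A spike-in probes moved the median of all kept transcripts to 0.77 and the calls in the set to 68 higher and 1 lower. Under normexp background correction that median was -0.51, with 33 rises and 34 falls in the set. The median of the set lay above that of all kept transcripts by 0.26 log2 units on the main scale and by 0.23 under normexp. Under spike-in scaling the gap was again 0.26. That was all but fixed in advance, as this scaling shifts all transcripts of an array by the same amount. The same test on the values of the authors' deposited table called 61 higher and 22 lower among 299 of the transcripts, and the medians lay 0.13 apart. With array brightness as a covariate limma called 0 higher and 3 lower, against 45 higher and 18 lower at an unadjusted p under 0.05. All 79 called transcripts kept their sign in that fit, which reuses the arrays they were called on. Under spike-in scaling 74 of the 79 kept their sign and 52 their call, and under normexp 73 kept their sign and 51 their call. Counts of calls under alternatives, here and below, are of the set alone. The share called over all kept transcripts is not given beside them, so they are not read against the array.

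The largest change of all was a fall. The transcript cDN22P0005J11 had signals of 5.08, 4.31, 4.15, 4.71 and 4.97 in LTE2 replicates 1 to 5 and 0.17, -1.08, 1.16, 1.76 and 0.35 in HTE2 replicates 1 to 5. Every HTE2 fish lay at least 2 log2 units below every LTE2 fish. It fell 18-fold (log2 difference -4.17, SE 0.46, limma adjusted p = 0.000806). The remaining probes for it gave -4.29 and -4.28. This was the only called transcript named here that passed under all 31 alternatives, with differences from -4.63 to -3.12 and adjusted p-values from 2.47e-05 to 0.0239.

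The transcript cDN22P0003N12 followed, with 1.97, 3.18, 2.59, 2.88 and 4.17 in LTE2 and -0.27, -0.19, 0.76, 0.87 and 0.89 in HTE2. Its groups did not overlap, and the LTE2 fish spread more widely (SD 0.81) than the HTE2 fish (SD 0.59). It fell 5.84-fold (log2 difference -2.55, SE 0.40, limma adjusted p = 0.00486). The signals of cDN22P0004I07 were 2.10, 1.93, 2.12, 2.60 and 2.40 in LTE2 against -0.30, -0.59, 0.74, -0.68 and -0.16 in HTE2, again without overlap. It fell 5.39-fold (log2 difference -2.43, SE 0.28, limma adjusted p = 0.000895). Both falls passed in 30 of 31 alternatives and missed the threshold under spike-in scaling (limma adjusted p = 0.131 for cDN22P0003N12 and 0.173 for cDN22P0004I07).

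The bright transcript cDN22P0004C10 was tightly held in LTE2, at 6.62, 6.86, 6.81, 6.88 and 6.91, and lay at 4.83, 4.70, 6.13, 4.06 and 5.11 in HTE2. The LTE2 SD was 0.11 and the HTE2 SD 0.75, and HTE2 replicate 3 came nearest to the LTE2 fish. The fall was 3.61-fold (log2 difference -1.85, SE 0.32, limma adjusted p = 0.00726). Under spike-in scaling it was -0.80 and did not pass (limma adjusted p = 0.476), and with brightness as a covariate it was -1.64 (0.0946). The next falls were cDN22P0003F01 (-1.75), cDN22P0004I04 (-1.61) and cDN22P0002I03 (-1.61), each without overlap between the groups. The transcript cDN22P0003F01 was measured by 1 kept probe and HTE2 replicate 4 lay far below its group at -2.11. A further fall, cDN22P0002F13 (-2.13, limma adjusted p = 0.0286), had overlapping groups, and its other probes gave smaller differences of -1.40 and -1.28.

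The largest rise was that of cDN22P0004N14, with -5.47, -6.22, -3.85, -3.32 and -4.45 in LTE2 and -2.64, -3.33, -0.13, -0.19 and -2.73 in HTE2. The highest LTE2 fish, replicate 4, lay at the level of the lowest HTE2 fish, replicate 2. It rose 7.25-fold (log2 difference 2.86, SE 0.74, limma adjusted p = 0.0217). The remaining probes for it gave 2.79 and 2.90. The second, cDN22P0002P01, had -5.71, -6.47, -4.20, -3.96 and -5.79 in LTE2 and -2.93, -3.24, -2.50, -1.17 and -2.95 in HTE2. Its groups did not overlap, and it rose 6.35-fold (log2 difference 2.67, SE 0.53, limma adjusted p = 0.0120). Of the LTE2 arrays, 2 detected cDN22P0002P01 and 3 detected cDN22P0004N14, against all 5 HTE2 arrays for both. The sizes of these rises thus rest in part on LTE2 values not well above background.

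Some rises of dim probes were smaller under the normexp alternative, which starts from median spot and background intensities in place of the processed signal and adds an offset of 50 intensity units. Such an offset by itself shrinks differences at low signal, and the part of each change was not separated. With it, cDN22P0004N14 stood at 0.87 (limma adjusted p = 0.198), cDN22P0002P01 at 0.33 (0.534), cDN22P0004F18 at 0.26 (0.663, from 2.54) and cDN22P0004H01 at 0.76 (0.131, from 2.21). The transcript cDN22P0004M08 turned from 2.16 to -0.35 (0.484). Every HTE2 array and none of the LTE2 arrays detected it above background, so the size of its rise is uncertain (limma adjusted p = 0.0129 on the measured values). The rise was 4.32-fold when each LTE2 value below the lowest well-above-background signal of any probe on its array was raised to that signal. This is not taken as a lower bound, as the normexp value lay below it. Measured means were -4.16 in HTE2 and -6.32 in LTE2. It passed the detection filter through its HTE2 arrays alone, so the filter favoured a rise, and its p-value and its place among the rises are no independent support. In all, 10 of the 55 rises and 2 of the 24 falls were of transcripts not detected on every array. All 10 of these rises were detected on all 5 HTE2 arrays, which by themselves met the filter. Among them were cDN22P0004F18 and cDN22P0004H01, detected on 3 and 4 LTE2 arrays. With detection on all 10 arrays required, 49 rises and 25 falls were called among 247 transcripts. The share called over the whole array with that filter is not given here, so this count is not read against it.

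Among rises at higher signal, cDN22P0002H11 had 0.61, -0.28, 1.14, 0.11 and -0.08 in LTE2 and 2.77, 2.02, 1.16, 3.89 and 2.99 in HTE2. The groups did not overlap, but HTE2 replicate 3 lay barely above LTE2 replicate 3. It rose 4.80-fold (log2 difference 2.26, SE 0.47, limma adjusted p = 0.0128). For cDN22P0001F11 the signals were 0.18, -0.97, 0.88, -1.06 and -1.45 in LTE2 and 2.82, 1.62, -0.41, 3.04 and 2.70 in HTE2. HTE2 replicate 3 lay inside the LTE2 range and the other 4 HTE2 fish above it. The rise was 5.43-fold (log2 difference 2.44, SE 0.67, limma adjusted p = 0.0260) and passed in 18 of 31 alternatives. Among those it missed was the slide as a block (limma adjusted p = 0.0587). A smaller rise with one of the lowest p-values was that of cDN22P0004P24, from -1.64 ± 0.31 to -0.31 ± 0.53 (SD, n = 5; log2 difference 1.33, limma adjusted p = 0.0128).

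**Figure D2:**
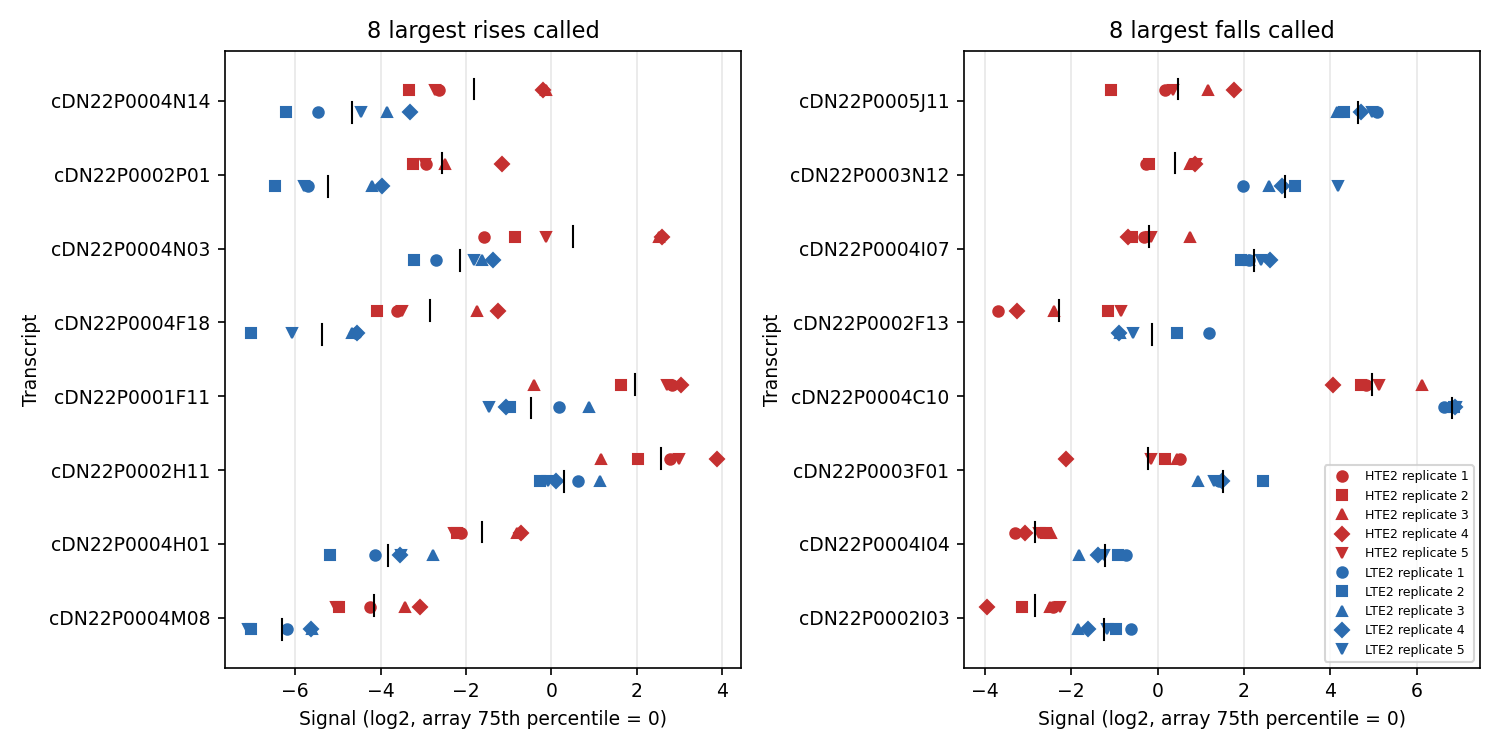
Signals in each fish (log2, 75th percentile of the array at 0) are shown for the 8 largest called rises and the 8 largest called falls, LTE2 in blue and HTE2 in red with 1 marker shape per replicate and black bars at group means. The HTE2 fish of cDN22P0005J11 lie clear of its LTE2 fish, while cDN22P0004N14 and cDN22P0004N03 rise most in HTE2 replicates 3 and 4.

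Counted by overlap alone, 25 transcripts had all HTE2 fish above all LTE2 fish (8.33%, against 4.08% of all kept transcripts) and 21 had all HTE2 fish below (7.00%, against 9.44%). Of these, 23 of the 25 and 16 of the 21 were also called. Probes of a called transcript had the same sign. Of the 79 called transcripts, 73 had more than 1 kept probe, and in all 73 every probe had the same sign. Over the 275 transcripts with more than 1 kept probe, called or not, all probes had the same sign in 251. In these 275 the differences of a transcript's probes lay a median of 0.12 and at most 1.46 log2 units apart.

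Slides were not alike. With the slide as a block, 34 transcripts were called higher and 20 lower, and 47 of the 79 calls held. Within slides 1, 2, 4 and 5 the median difference of the 55 risen transcripts was 1.25, 1.55, 2.0 and 1.36, and on slide 3 it was 0.06. Of the 55, 33 were higher in the HTE2 fish on slide 3, against 54, 55, 55 and 55 on slides 1, 2, 4 and 5. For the 24 fallen transcripts the slide medians were -1.26, -1.63, -0.54, -2.02 and -1.20 on slides 1 to 5, and 21 were lower in HTE2 on slide 3 against all 24 on each other slide. As these transcripts were called on the same arrays, the signs describe the calls and do not test them. Array brightness (log2, HTE2 minus LTE2) differed by 1.69, 0.84, 0.67, 1.03 and 0.10 on slides 1 to 5, and its part in these differences was not tested.

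**Figure D3:**
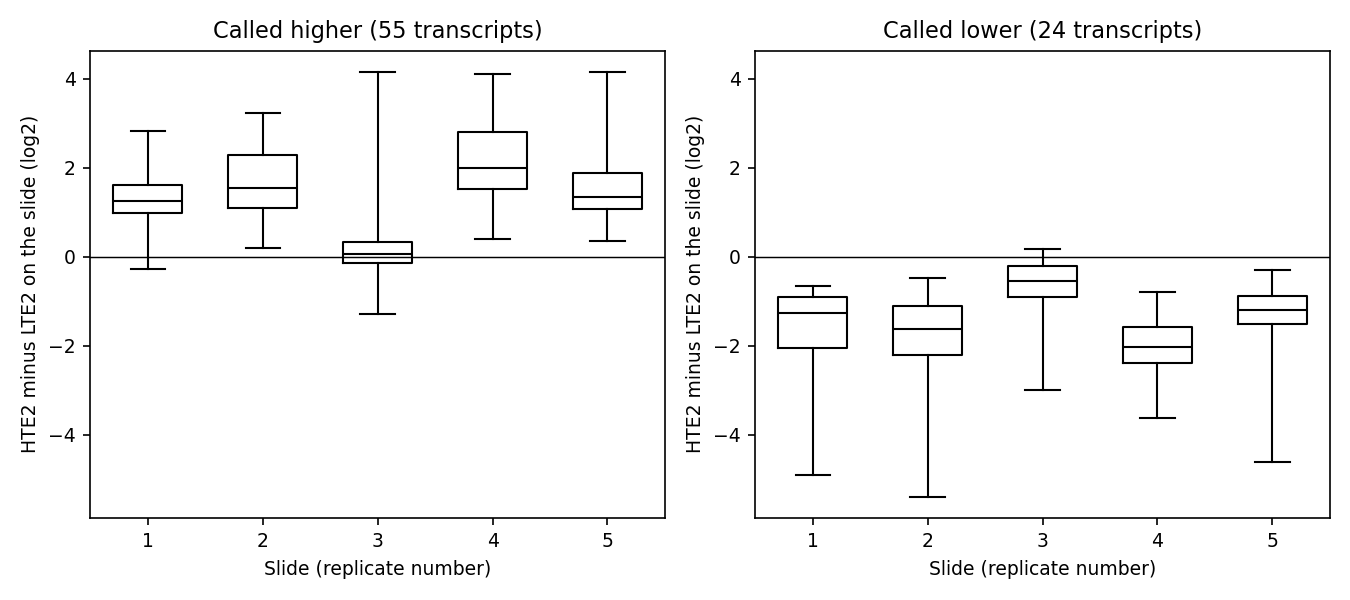
Boxes show the difference HTE2 minus LTE2 (log2) within each slide for the 55 called rises (left) and the 24 called falls (right), with the box at the quartiles, the line at the median and whiskers to the lowest and highest transcript. On slide 3 the median rise was 0.06 and the median fall -0.54, nearer to 0 than on the other slides.

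Counts in the set changed when fish were left out. They are given without the share over all kept transcripts, and a fit with fewer arrays can by itself call fewer. Leaving out HTE2 replicate 3 gave 76 higher and 45 lower, and leaving out both fish of slide 3 gave 69 and 40. Leaving out any other fish lowered the counts, among them to 23 higher and 15 lower without LTE2 replicate 4, 27 and 13 without LTE2 replicate 5, 30 and 14 without HTE2 replicate 1, 31 and 16 without HTE2 replicate 5, 37 and 14 without HTE2 replicate 2, and 38 and 15 without LTE2 replicate 2. Without both fish of slide 1, 2, 4 or 5 only 5, 3, 2 and 0 rises and 7, 5, 9 and 5 falls were called by limma, where slide 5 left 57 rises and 32 falls at an unadjusted p under 0.05. All 79 transcripts kept their sign in each of these fits. As they were called on the same arrays that the fits reuse, this describes the calls and does not test them.

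Where HTE2 replicate 3 lay divided the risen transcripts. In 41 of the 55 (74.5%) it was the lowest of the HTE2 fish, against 86.2% of the 1066 risen transcripts of the whole array with a value in every HTE2 fish. In 10 (18.2%) it was the highest or second highest, against 4.41%. The 41 had a median signal of 0.74 and a median slide 3 difference of -0.02. The 10 were dimmer, at a median signal of -3.56, with a median rise of 2.18 log2 units and a slide 3 difference of 1.83, and 3 of the 10 were detected on every array. They include cDN22P0004N03, at -2.70, -3.21, -1.62, -1.38 and -1.81 in LTE2 and -1.57, -0.84, 2.53, 2.58 and -0.13 in HTE2. Its HTE2 replicates 3 and 4 lay over 2 log2 units above the other fish, while HTE2 replicate 1 lay inside the LTE2 range. The rise of cDN22P0004N03 was 6.31-fold (log2 difference 2.66, SE 0.79, limma adjusted p = 0.0342) and passed in 16 of 31 alternatives. An uncalled transcript, cDN22P0005K01, was likewise highest in these fish, with -4.21, -4.02, -1.72, -1.48 and -2.39 in LTE2 and -2.88, -2.62, 2.52, 2.26 and -0.64 in HTE2 (log2 difference 2.49, limma adjusted p = 0.105). Replicates 3 and 4 were also the highest among LTE2 fish in the medians over the 10. These were -3.89 and -3.76, against -4.66, -5.26 and -4.84 in LTE2 replicates 1, 2 and 5. The pattern was thus shared by both arrays of slides 3 and 4, and the part of the slide was not tested. The split into 41 and 10 was made after the values were seen and is a description.

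Fish differed in order in both groups. HTE2 replicate 4 was the highest HTE2 fish for 43 of the 55 risen transcripts (78.2%, against 70.2% of the risen transcripts of the whole array). It was the lowest for 16 of the 24 fallen ones (66.7%, against 73% of the whole array's fallen transcripts). Among LTE2 fish, replicate 3 was the highest for 36 of the 55 risen transcripts (65.5%, against 56.4%). LTE2 replicate 2 was the lowest for 30 of them (54.5%, against 43.2%). The order of fish was thus largely shared with the whole array.

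**Figure D4:**
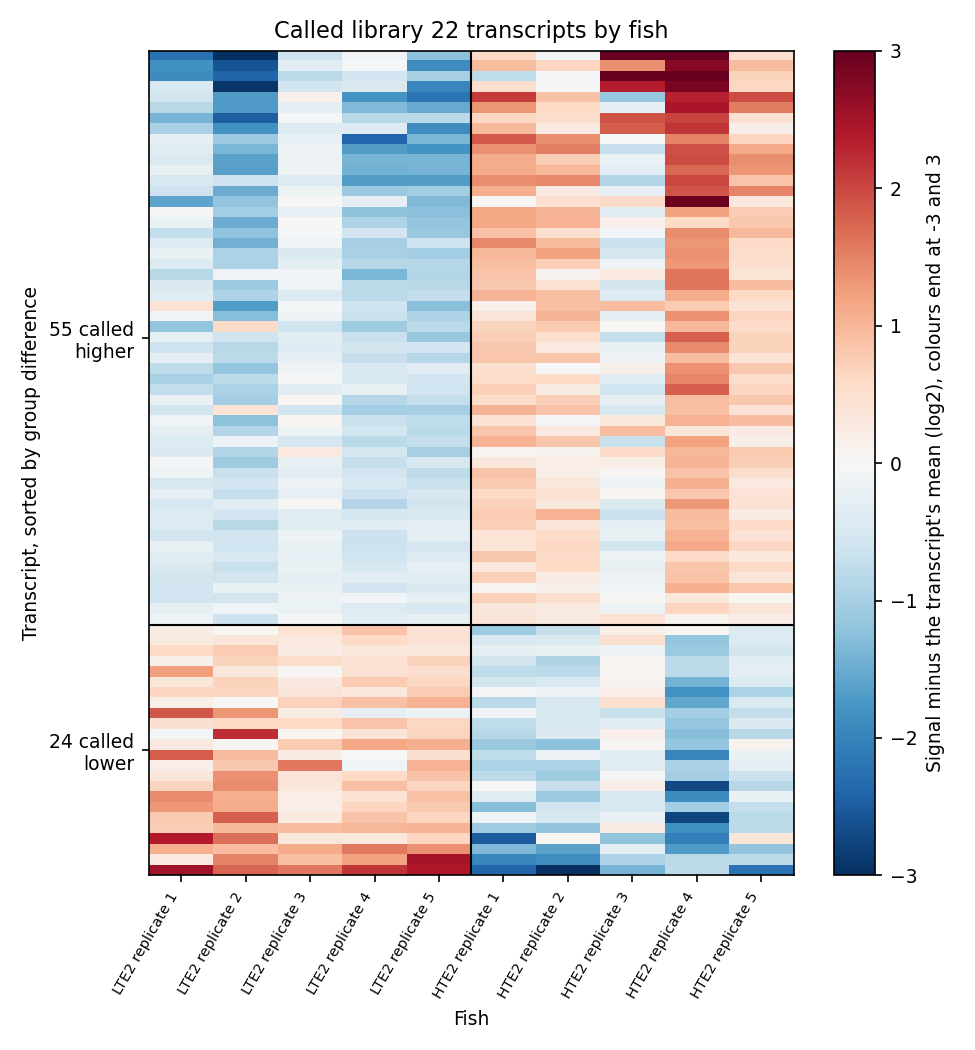
Each row is 1 of the 79 called transcripts, sorted by group difference, and each column 1 fish, with colour giving the signal minus the transcript's mean over fish (log2). HTE2 replicate 3 is paler than its group in most of the 55 risen transcripts, and a dark stretch at the top in HTE2 replicates 3 and 4 marks the risen transcripts in which these fish are highest.

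Spread among fish exceeded that between spots. The median SD over fish, pooled within groups, was 0.50 log2 units, and the median SD between duplicate spots on an array was 0.07. The first value also holds differences between arrays. Spread was larger in HTE2 for 209 of the 300 transcripts (69.7%), close to the 69.0% of all kept transcripts, with a median SD of 0.38 in LTE2 and 0.54 in HTE2. Without HTE2 replicate 3 the median HTE2 SD was 0.44, and 178 of 300 had the larger SD in HTE2.

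Some transcripts barely varied. Among the 245 detected on every array, the pooled SD ran from 0.14 to 2.61. The steadiest were cDN22P0001P23, cDN22P0005P04, cDN22P0003N13, cDN22P0003K04 and cDN22P0003M18, with SDs of 0.14 to 0.16. The signal of cDN22P0005P04 was 2.47, 2.20, 2.39, 2.48 and 2.61 in LTE2 and 2.54, 2.20, 2.50, 2.40 and 2.44 in HTE2. All 10 fish lay within 0.5 log2 units, and the group difference was -0.01 (SE 0.17).

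Others were set apart by a single fish. In 11 of the 300 transcripts (3.67%) the highest fish of a group lay more than 3 log2 units (8-fold) above the next fish of that group, against 86 of all 9929 kept transcripts (0.866%). This limit was chosen after the values were seen. Of the 11, 7 had LTE2 replicate 2 as that fish, 3 had LTE2 replicate 3 and 1 had LTE2 replicate 1, and none had an HTE2 fish. Over all kept transcripts 63 of the 86 fell to LTE2 replicate 2 and 13 to LTE2 replicate 3.

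In LTE2 replicate 2, cDN22P0004G17 stood at 4.23 against -2.82, -3.55, -3.67 and -4.25 in the other LTE2 fish and -3.96 to -1.17 in HTE2. Its gap of 7.05 log2 units was 7.27 and 7.52 in its other probes. The transcript cDN22P0002F10 stood at 3.98 in the same fish, with -2.91 as the next LTE2 value and -3.80 to -1.89 in HTE2, and its gap of 6.89 was 6.77 and 7.49 in its other probes. The same fish was highest for cDN22P0004I11, cDN22P0002G12, cDN22P0002H02, cDN22P0001J12 and cDN22P0004F24, with gaps of 5.92, 5.68, 4.77, 4.31 and 3.67. In the other LTE2 fish all 7 transcripts lay at -2.82 or lower.

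In LTE2 replicate 3, cDN22P0005B14 stood at 5.78 against 0.21 for the next LTE2 fish and -1.80 to 1.04 in HTE2, and cDN22P0005C18 at 4.33 against -0.77 and -3.20 to -2.12. The gaps of 5.57 and 5.09 recurred in their other probes, at 5.50 in both other probes of the first and 5.35 and 5.36 in those of the second. The third transcript high in that fish, cDN22P0001I21, stood at 0.54 with the next LTE2 fish at -4.98, and had no other kept probe. In LTE2 replicate 1, cDN22P0002O24 stood at 0.40 with the next LTE2 fish at -4.08, and 2 HTE2 fish were also above that, at -0.58 and -2.44. None of the 11 passed the test between the groups (limma adjusted p from 0.189 to 0.971).

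**Figure D5:**
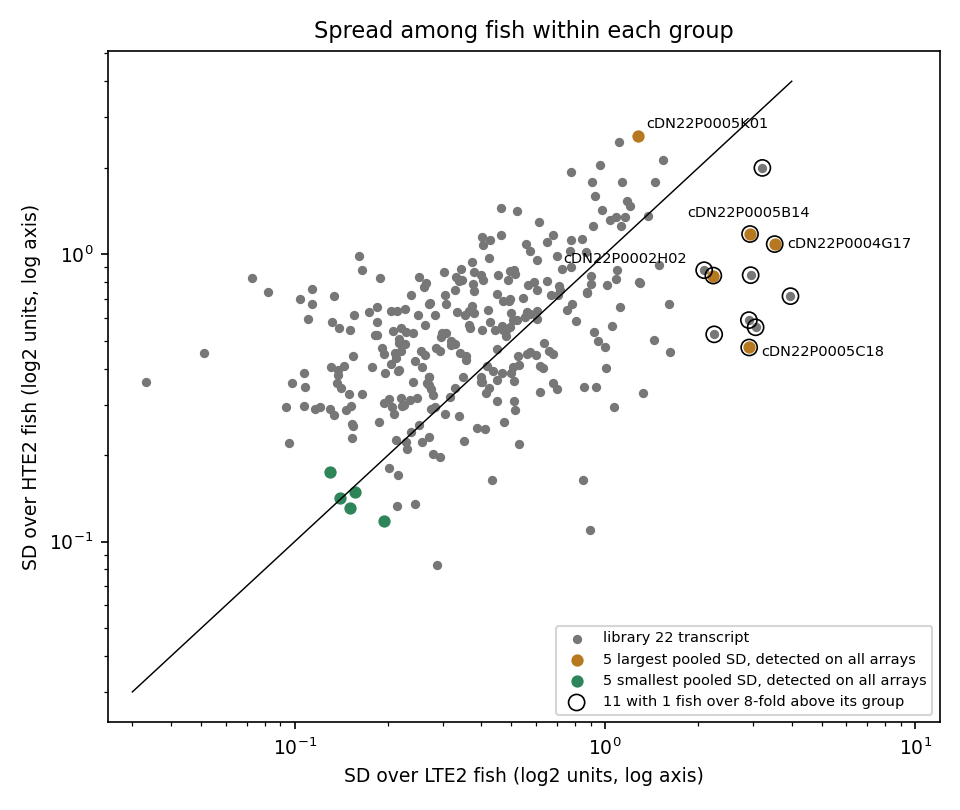
The SD over HTE2 fish is plotted against the SD over LTE2 fish (log2 units, both axes logarithmic) for the 300 transcripts, with a line of equal spread. Most lie above the line, and the 11 circled transcripts with 1 fish over 8-fold above its group lie at LTE2 SDs above 2.

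By plate, plates 1 to 6 had 44, 42, 40, 63, 54 and 57 kept transcripts. Rises numbered 10, 8, 5, 19, 7 and 6 and falls 2, 3, 4, 8, 2 and 5. Plate 4 held the most of both, with 19 rises and 8 falls among 63 transcripts, and the highest median difference of 0.31 log2 units. It also had the most kept transcripts, so the counts are not shares. Over all kept transcripts of the array 10.7% were higher and 14.5% lower. These counts are given without a test, as plates were set apart only after the calls were known.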

How the data were processed

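Gonad RNA (100 ng, RIN above 7 per the labels' protocols) of 10 fish was measured on 10 1-colour Agilent arrays. The deposited scanner files give intensities per spot, which per the file headers Agilent Feature Extraction 10.7.3.1 (protocol GE1_107_Sep09) made by background subtraction, with flags for outlier and well-above-background spots. The deposited value table holds the authors' log2 values, and their normalization is not given in the sources used. It served as an alternative.

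The intensities were put on a log2 scale and each array's 75th percentile was subtracted. The 1417 control spots per array and 1057 outlier spots were left out, and no spot was saturated. Probes stayed in the test if the well-above-background flag was set for 50% or more of their spots on 5 or more arrays (20115 of 24200 probes), and the brightest kept probe stood for a transcript. limma 3.58.1 in R 4.3.3 (lmFit, eBayes) compared 5 HTE2 with 5 LTE2 arrays over all 9929 transcripts with Benjamini-Hochberg adjustment. The test was checked on simulated data with independent normal noise and the same SD in both groups. Those data held no slide effect and no deviation shared across transcripts, so the check does not cover these. Figures used matplotlib 3.10.9.

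Fold differences are 2 to the power of a log2 difference. Named transcripts are the 8 largest called rises and falls, the 3 called in each direction with the smallest p, the 8 brightest, the 5 most and 5 least variable of those detected on all arrays, and the 3 on each side of the detection limit. Others were named after their values were seen. The members and lists were chosen with earlier results of these data known. Gene lists could not be matched to clone names. Replicate numbers match slides and nothing says that they join related fish: the correlations of paired deviations were 0.39, 0.29, -0.27, 0.04 and 0.15. p-values measure the spread between these arrays. The number of arrays limits the precision, with a median standard error of 0.31 log2 units.

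Alternatives were other scalings and background corrections, filters, probe summaries, variance models, slide blocks, brightness as a covariate, and leaving out fish or slides.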

Additional observations from a re-analysis of the deposited data

Results flagged for a closer look

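Single fish far from the other 4 of their group were found in 7 of 76 groups of values screened. Chance flags about 1 in 20 groups, but the screened transcripts include 5 chosen for the largest spread among fish, which hold 4 of the 7, so the count is not to be read against that rate. LTE2 replicate 2 stood high at 4.23 for cDN22P0004G17 and at 1.46 for cDN22P0002H02. LTE2 replicate 3 stood high at 5.78 for cDN22P0005B14 and at 4.33 for cDN22P0005C18. HTE2 replicate 4 stood low at -2.11 for cDN22P0003F01, a called fall with 1 kept probe, and at -8.21 for cDN22P0006J11, a transcript near the detection limit. The log2 75th percentile of the LTE2 replicate 1 array was 7.86, below the other LTE2 arrays.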

How the results depend on the processing

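Against 55 rises and 24 falls, the slide as a fixed replicate block gave 34 rises (20 falls), normexp 33 rises, the authors' table with the block (chosen after seeing the data) 33 rises and 15 falls, and array brightness as a covariate 0 rises and 3 falls by limma. Spike-in scaling left 1 fall, and array weights gave 54 falls (81 rises). The median difference of -0.02 became 0.076 under quantile normalization, 1.03 under spike-in scaling and -0.28 under normexp. Leaving out 1 fish or 1 slide gave 0 to 76 rises, 5 to 45 falls and medians of -0.05 to 0.04. Counts under the remaining alternatives stayed within 1.5 times. The causes were not tested.

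Among the transcripts named for their rise, fall, p-value or signal, the following differences turned sign. Under quantile normalization they were cDN22P0005O03 0.038, cDN22P0002E16 0.12, cDN22P0006L07 0.13 and cDN22P0004B06 0.078. Under spike-in scaling they were cDN22P0005O03 0.15, cDN22P0002E16 0.11, cDN22P0006L07 0.12, cDN22P0003C08 0.20, cDN22P0006K23 0.39 and cDN22P0004B06 0.89. Normexp turned cDN22P0004M08 (-0.35) and cDN22P0004B06 (0.052), and brightness cDN22P0002E16 (0.027). The authors' table, with or without the block, turned cDN22P0005O03 (0.044), cDN22P0002E16 (0.028), cDN22P0006L07 (0.18) and cDN22P0004B06 (0.078). Of 739 values for named transcripts, 599 kept direction and side of the threshold, 113 lost the call, 6 gained one and 21 turned. The replicate block was among the alternatives that ended the calls of cDN22P0001F11 and cDN22P0004F20 (limma adjusted p = 0.0587 and 0.0593). Signal over background limits the transcripts not detected on every array, 10 of the 55 rises and 2 of the 24 falls.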
